A study of Mus musculus with 136 samples.

Results

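Single embryos that had formed 6 somite pairs were compared with embryos that had formed 5, to find the transcripts whose level differed at the gain of 1 somite pair. The 34 embryos were chosen by the somite number in their labels, 10 with 6 and 24 with 5 somite pairs, out of 136 libraries in the whole series. All were whole embryos of the NOD mouse strain, dissected at E8.5 without their yolk sac and sequenced one by one, with unique molecular identifiers that count each captured RNA molecule once. NOD females become diabetic spontaneously, and both diabetic and normal dams were mated to normoglycemic NOD males. Of the embryos with 6 somite pairs, 6 came from normal and 4 from diabetic pregnancies, and of those with 5 somite pairs 11 came from normal and 13 from diabetic pregnancies. Maternal blood glucose at dissection lay between 105 and 164 mg/dl in the normal pregnancies. It lay between 449 and 595 mg/dl in the diabetic pregnancies with a numeric value, which litter D28M27 lacked. Maternal condition was a covariate in the comparison. The embryos belonged to 19 litters, and 5 of these litters held embryos of both somite numbers.

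Somites are the paired blocks of mesoderm that later give rise to vertebrae, skeletal muscle and dermis. They bud off one pair at a time from the presomitic mesoderm, where a clock of Notch, Wnt and Fgf target genes oscillates and a gradient from the tailbud sets the position of each new boundary. At this age the mouse embryo is also turning its heart fields into a beating tube, closing its neural folds, releasing cranial neural crest and laying down its first vessels. A whole-embryo library averages over all of these tissues, so that fewer cells of a type and less RNA per cell cannot be told apart.

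The 34 libraries held between 1762872 and 5658850 counted molecules. Their medians were 3131974.5 at 6 and 2467749.5 at 5 somite pairs (two-sided permutation test within maternal condition, p = 0.0371, and 0.0556 after Benjamini-Hochberg adjustment over 3 library measures), and in all 5 litters that held both somite numbers the mean total was higher at 6. Of the 10 embryos with 6 somite pairs, 9 came from litters whose title begins with the number 28, against 16 of the 24 with 5, and what the number stands for is not stated. Visceral endoderm markers (10 genes such as Afp, Ttr and Apob, all detected) summed to between 71.1 and 782 CPM (counts scaled to equal library totals) at 5 and to between 74.9 and 621 at 6 somite pairs, compared with a median of 9182 in the yolk sacs of the same concepti. Mitochondrial transcripts made up 2.78% to 7.21% of counts at 5 and 3.19% to 5.42% at 6 somite pairs. The sex in the labels matched the levels of Xist and of 4 Y-linked genes in every embryo, and 6 of 10 and 14 of 24 embryos were male.

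At 6 somite pairs 32 genes were higher and 22 were lower than at 5, among 11441 genes tested. They make up 0.28% and 0.192% of the tested genes, together 0.472%, at an adjusted p under 0.05 (edgeR quasi-likelihood test with Benjamini-Hochberg adjustment), while 2349 genes, or 20.5%, had an unadjusted p under 0.05. The log2 fold changes ran from -0.87 for Flywch1 to 1.51 for Rnu12, and for none of the 54 genes did the ranges of the 6- and the 5-somite embryos separate completely. In both normal and diabetic pregnancies the fitted difference had the same sign for all 54. These genes were selected on the pooled difference of the same embryos, so the matching signs are no separate support. The count rested on single litters. It was 0 without litter D24M15 or D28M23, 1 without N28M06, 2 without N28M05, 5 without N24M29 or N28M30, 8 without N24M21, 15 without D28M27, 16 without N23M31, 33 without D23M11 or D24M22, 89 without D28M53, 90 without D28M36, 97 without N28M07, 292 without N28M25, 416 without N28M22 and 433 without N28M03. Leaving out 1 embryo with 6 somite pairs gave 0 (diabetic replicate 1), 2 (normal 1), 3 (diabetic 4), 4 (diabetic 3), 5 (normal 3), 10 (normal 2), 12 (normal 5), 17 (normal 6), 131 (diabetic 2) and 328 genes (normal 4). In the 25 embryos of the litters numbered 28 alone no gene passed in edgeR, with 1116 of 11257 at an unadjusted p under 0.05. With the title number as a further covariate 2 genes passed, Kctd11 and Slc9a3r1. With the counts summed per litter and somite number none passed (1888 of 11546 at an unadjusted p under 0.05).

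Littermates share a dam and a dissection, and a fit within the 5 litters that held both somite numbers (13 embryos, 7 with 6 and 6 with 5 somite pairs) gave a much longer list. With litter as a fixed block, 678 genes were higher (5.96% of 11378 tested) and 743 lower (6.53%) at 6 somite pairs, together 12.5%, and 47 of the 54 genes were among them with the same direction. These embryos are part of the 34, so the block is another reading of the same data. In each of these litters the libraries with 6 somite pairs were deeper in their mean. In N28M06, however, a 6-somite library held 3533613 counts and a 5-somite library 3677626. With all libraries thinned to equal depth the block gave 1332 genes. Without litter D24M15, D28M02, D28M23 or N28M30 the block gave 852, 861, 327 and 627 genes, and without N28M06 it gave 1677. The difference was of the same sign in all 5 litters for 50 of the 54 genes, compared with 25.2% of all tested genes.

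Of the genes that were higher at 6 somite pairs, Kctd11, an adaptor of a cullin ubiquitin ligase that restrains Hedgehog signalling, had the smallest adjusted p. The gene (ENSMUSG00000046731) lies on the minus strand of chromosome 11, from 69878261 to 69881406 in GRCm38. Its normalized count ranged from 35.9 to 83.7 with a median of 50.7 at 5 somite pairs, and from 67.3 to 120 with a median of 80.1 at 6. All 10 embryos with 6 somite pairs lay above the median of the 5-somite embryos and 4 lay above all of them, so the groups overlapped only in their adjoining ends. The log2 fold change was 0.65 ± 0.11 (SE; edgeR adjusted p = 0.011) over all embryos and 0.70 ± 0.15 within litters (adjusted p = 0.0079). It no longer passed without litter D24M15, D28M23 or N28M06 (adjusted p = 0.0692, 0.129 and 0.0511, log2 fold changes 0.61 to 0.66) or without diabetic 6-somite embryo 1 (adjusted p = 0.05, just over the threshold).

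Oaz2, an antizyme that lowers polyamine synthesis by sending ornithine decarboxylase to the proteasome, ranged from 141 to 561 (median 245) at 5 and from 253 to 669 (median 446) at 6 somite pairs. The 5-somite embryo at 561 lay above most 6-somite embryos, and the log2 fold change was 0.67 ± 0.14 (adjusted p = 0.0336) over all embryos and 0.91 ± 0.18 within litters (adjusted p = 0.00597). Bgn, which encodes the matrix proteoglycan biglycan, ranged from 6.05 to 34.2 (median 14) at 5 and from 16.8 to 48.1 (median 29.3) at 6 somite pairs. All but 1 of the 6-somite embryos had 26.7 normalized counts or more, and the log2 fold change was 0.94 ± 0.18 (adjusted p = 0.0244), and 1.05 ± 0.24 within litters. Sfn, the epithelial 14-3-3 protein sigma, ranged from 6.16 to 37 (median 24.5) at 5 and from 23.7 to 71.9 (median 36) at 6 somite pairs. Its log2 fold change of 0.89 ± 0.20 passed over all embryos (adjusted p = 0.0433) but not within litters (0.72 ± 0.26, adjusted p = 0.0728).

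Lfng was the only called gene among the 19 marker and pathway lists. It encodes lunatic fringe, a glycosyltransferase that modifies Notch receptors and cycles with the segmentation clock in the presomitic mesoderm. The gene (ENSMUSG00000029570) lies on the plus strand of chromosome 5, from 140607320 to 140615545. Its normalized count ranged from 52.1 to 154 (median 114) at 5 and from 131 to 203 (median 148) at 6 somite pairs, and every 6-somite embryo lay above the median of the 5-somite embryos. The log2 fold change was 0.54 ± 0.13 (adjusted p = 0.0482) over all embryos and 0.66 ± 0.17 within litters (adjusted p = 0.0221). With the GC trend of the libraries removed, as described below, it was 0.43 (adjusted p = 0.0861) over all embryos and 0.39 (adjusted p = 0.226) within litters.

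**Figure D1:**
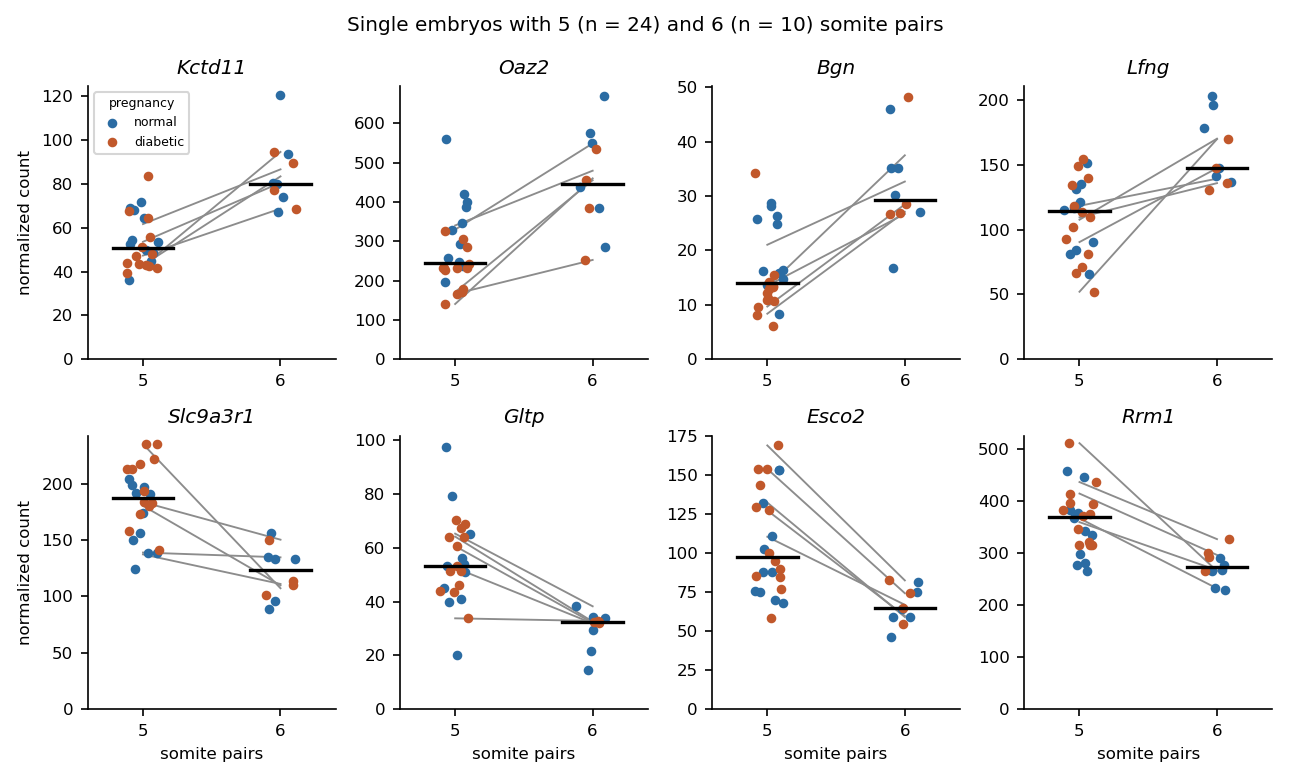
Normalized counts (y axis) of 8 genes in single embryos with 5 and 6 somite pairs (x axis), coloured by maternal condition; black bars are group medians and grey lines join the means of the 5 litters that held both somite numbers. Kctd11, Oaz2, Bgn and Lfng were higher and Slc9a3r1, Gltp, Esco2 and Rrm1 lower at 6 somite pairs, with overlap between the groups in every gene.

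The remaining named genes that were higher at 6 somite pairs had varied roles. Arhgef10l, a guanine nucleotide exchange factor, went from a mean of 27 to 46.4 normalized counts (log2 fold change 0.73 ± 0.14), Agap3, a GTPase-activating protein for Arf, from 453 to 678 (0.58 ± 0.13), and Dgkq, a kinase that removes the second messenger diacylglycerol, from 40.1 to 60.3 (0.56 ± 0.14). Vars2, the valyl-tRNA synthetase of mitochondria, went from 39.3 to 62.8 (0.62 ± 0.15). The antisense long non-coding RNA C130021I20Rik went from 27.4 to 43.7 (0.66 ± 0.16). All 5 passed within litters as well, with adjusted p between 0.00346 and 0.0243.

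A further 19 genes were higher at 6 somite pairs with log2 fold changes between 0.34 (Naa60) and 0.54 (Eid2). Several of them act in metabolism. Prkag1, a regulatory subunit of the AMP-activated kinase, had medians of 212 and 327 normalized counts at 5 and 6 somite pairs (log2 fold change 0.54 ± 0.12), and Isyna1, which makes inositol from glucose phosphate, had medians of 207 and 314 (0.51 ± 0.11). Coasy, which completes coenzyme A synthesis, was at 0.52, and Cox10, needed for the heme of cytochrome oxidase, at 0.40. Mfge8, a secreted protein that bridges phagocytes and dying cells, had medians of 268 and 381 (0.53 ± 0.11), with all 10 of the 6-somite embryos above the median of the 5-somite embryos. Uchl1, a deubiquitinating enzyme of neural cells, had medians of 203 and 268 (0.46 ± 0.10), and Fam110a had 6 of the 6-somite embryos above every 5-somite embryo (0.52 ± 0.12). Of these, Inpp1, a phosphatase of inositol phosphates, was at 0.38 within litters and did not pass there (adjusted p = 0.182).

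The 3 genes with the largest fold changes, Rnu12, mt-Te and Tmem245, did not pass within litters. Rnu12, the U12 RNA of the minor spliceosome, ranged from 0.71 to 42.4 (median 6.29) at 5 and from 4.8 to 97.6 (median 12.5) at 6 somite pairs. Tmem245, a membrane protein gene, ranged from 122 to 1189 (median 268) at 5 and from 228 to 2960 (median 556) at 6 somite pairs. For both genes the highest embryo of each somite number came from litter D24M15, with 42.4 and 97.6 for Rnu12 and 1189 and 2960 for Tmem245 in its 5- and its 6-somite embryo, and the 6-somite embryo of litter D28M02 was the next highest of its group at 64.1 and 1327. The log2 fold changes of 1.51 ± 0.37 for Rnu12, 1.29 ± 0.27 for mt-Te, the mitochondrial tRNA for glutamate, and 1.15 ± 0.27 for Tmem245 were 0.77, 0.80 and 0.50 within litters (adjusted p = 0.0863, 0.0927 and 0.175). Neither Rnu12 nor mt-Te is a polyadenylated mRNA of the usual kind, whereas the library kit primes on poly(A), so their counts are of uncertain meaning.

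Among the genes that were lower at 6 somite pairs, Slc9a3r1 and Gltp stood out by their adjusted p. Slc9a3r1 encodes a scaffold that links membrane proteins to the cortical actin layer through ezrin. The gene (ENSMUSG00000020733) lies on the plus strand of chromosome 11, from 115163341 to 115181181. It ranged from 124 to 235 normalized counts (median 187) at 5 and from 89.1 to 157 (median 123) at 6 somite pairs, with 5 of the 6-somite embryos below all of the others and none above the median of the 5-somite embryos. The log2 fold change was -0.57 ± 0.10 (adjusted p = 0.011) over all embryos and -0.49 ± 0.15 (adjusted p = 0.039) within litters. It lost its call without litter D24M15 or D28M23 (adjusted p = 0.0692 and 0.129) and just missed the threshold without diabetic 6-somite embryo 1. Gltp, which moves glycolipids between membranes, ranged from 20.1 to 97.5 (median 53.3) at 5 and from 14.7 to 38.3 (median 32.4) at 6 somite pairs. None of the 6-somite embryos lay above the median of the 5-somite embryos, and the log2 fold change was -0.84 ± 0.16 (adjusted p = 0.0211), and -0.70 ± 0.15 within litters (adjusted p = 0.01).

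The lower genes are taken here by role, a grouping made after their values were seen. Esco2, the acetyltransferase that sets up sister chromatid cohesion in S phase, ranged from 58.2 to 169 (median 97.6) at 5 and from 45.9 to 82.4 (median 64.5) at 6 somite pairs. The log2 fold change was -0.67 ± 0.15 (adjusted p = 0.0433), and -0.94 ± 0.17 within litters (adjusted p = 0.00504). Rrm1, the large subunit of ribonucleotide reductase, had a log2 fold change of -0.38 ± 0.09, and Fbxo5, an inhibitor of the anaphase-promoting complex, one of -0.34 ± 0.08. Paics, an enzyme of purine synthesis, fell from a mean of 813 to 588 normalized counts, a log2 fold change of -0.45 ± 0.10. Over all 42 DNA replication genes of a list drawn up after values were seen, which holds Rrm1, the median was -0.02, with 20 positive and 1 called. At an unadjusted p under 0.05, where 20.5% of all genes stood, 5 were higher and 4 lower. Esco2, Rrm1, Fbxo5 and Paics passed both over all embryos and within litters, also with the GC trend removed within litters (adjusted p between 0.0122 and 0.046). None of them was among the 8 genes that passed over all embryos with the GC trend removed.

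Tma7, a small factor associated with ribosomes, had means of 38.2 at 5 and 22.5 at 6 somite pairs (log2 fold change -0.74 ± 0.17), and Bzw1, a regulator of translation initiation, means of 630 and 440 (-0.48 ± 0.10). The tRNA methyltransferase genes Trmt10c and Trmt11 differed by -0.60 ± 0.14 and -0.53 ± 0.11. Thoc1, a subunit of the THO complex in mRNA export, differed by -0.50 ± 0.11, and Polr2b, the second largest subunit of RNA polymerase II, by -0.38 ± 0.08 on the log2 scale. All 6 passed within litters, with adjusted p between 0.00349 and 0.0195.

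Iqgap1, a large scaffold protein that binds actin, ranged from 273 to 655 (median 404) at 5 and from 187 to 388 (median 275) at 6 somite pairs, a log2 fold change of -0.46 ± 0.11. Tmod3, which caps the slow-growing ends of actin filaments, differed by -0.48 ± 0.10, Capza2, which caps their fast-growing ends, by -0.41 ± 0.10, and the septin gene Sept2 by -0.45 ± 0.10. The zinc finger gene Flywch1 had the largest drop, at -0.87 ± 0.21 over all embryos and -1.03 ± 0.26 within litters, although 1 of its 6-somite embryos lay above the median of the 5-somite embryos. Zdhhc5, a palmitoyltransferase, differed by -0.46 ± 0.11 but did not pass within litters (-0.32 ± 0.13, adjusted p = 0.117), and neither did Tmem64 (-0.44 over all embryos and -0.27 within litters, adjusted p = 0.26). Of the 54 called genes, 25 overlap another annotated gene on either strand (Dgkq overlaps Idua, Tma7 overlaps Ccdc51, and Thoc1 overlaps Usp14), and whether the counting used strand is not given in the sources used here.

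**Figure D2:**
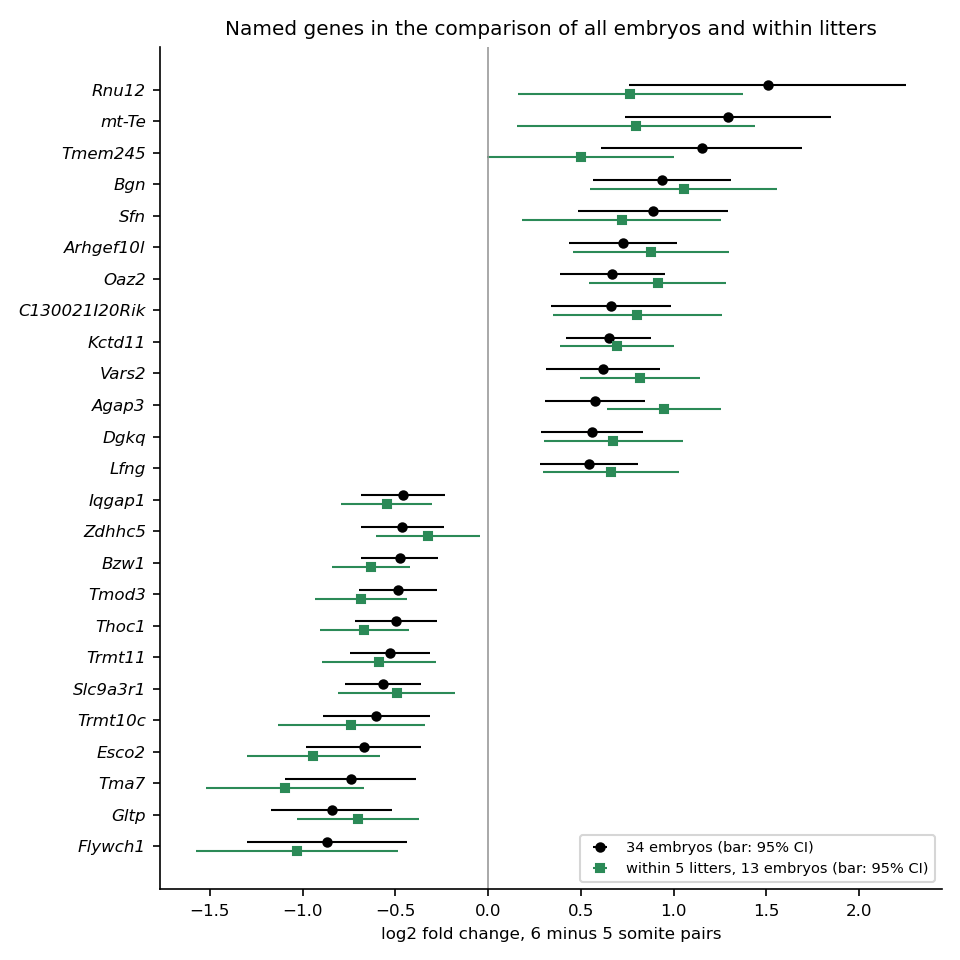
Log2 fold changes (x axis, 6 minus 5 somite pairs) of the named genes over the 34 embryos (black circles) and within 5 litters (green squares), with 95% confidence intervals. The 3 genes with the largest values over all embryos, Rnu12, mt-Te and Tmem245, were smaller within litters at 0.77, 0.80 and 0.50, while Esco2, Tma7, Agap3 and Oaz2 were larger in size there.

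The difference between 6 and 5 somite pairs ran along the GC content of transcripts. The GC content of the last 500 bases had a median of 52.5% in the genes higher and of 41.7% in the genes lower at 6 somite pairs, against 46.8% over all tested genes. Across 11429 genes the log2 fold change correlated with GC content at r = 0.30 (a description across genes, which are not independent replicates), and at 0.44 within litters. Each library was then described by the correlation, over the tested genes, of its deviation from the mean with GC content. This ranged from -0.328 to 0.252 (median -0.0453) at 5 and from -0.0268 to 0.331 (median 0.0937) at 6 somite pairs (permutation test within maternal condition, p = 0.00756, adjusted over 3 measures 0.0227). In all 5 litters the mean was higher in the 6-somite embryos, by 0.252 to 0.393 (exact sign-flip test over litters, p = 0.0625, the smallest that 5 litters can give). The 2 libraries made from 1 of the 6-somite embryos gave nearly the same value, 0.241 and 0.245 on the scale of all 66 embryos. Those of an 8-somite embryo of litter D24M15, also sequenced as 2 libraries, gave 0.105 and 0.0734. On that scale the medians were -0.127, 0.0151, 0.166, 0.102 and 0.120 at 5, 6, 7, 8 and 9 somite pairs. In the yolk sacs of the same concepti the medians were -0.0409 and 0.0494 (permutation p = 0.278). Whether GC content follows the tissue or the library was not tested.

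With the GC trend of each library removed, 8 genes passed over the 34 embryos and all 8 were among the 54 with the same direction. These were Kctd11, mt-Te, Arhgef10l, Bgn, Oaz2, Eid2, Slc9a3r1 and Gltp. Eid2, which inhibits the acetyltransferase activity of p300, had a log2 fold change of 0.54 ± 0.11 before the correction and 0.61 after it (adjusted p = 0.0438). Within litters 307 genes were then higher (2.7%) and 328 lower (2.88%), together 5.58% of those tested, and 29 of the 54 remained called with the same direction. Kctd11 kept a log2 fold change of 0.65 (adjusted p = 0.0177) and Slc9a3r1 one of -0.57 (adjusted p = 0.0374) there.

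**Figure D3:**
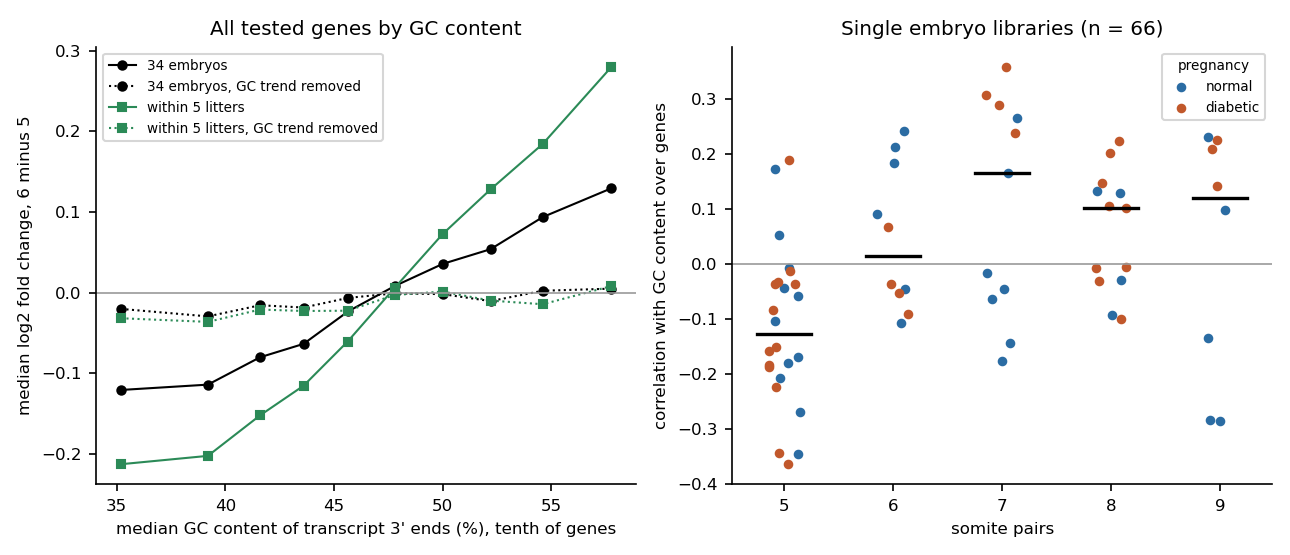
Left, median log2 fold change (y axis) of all tested genes in 10 bins of GC content of the transcript 3′ end (x axis, percent), before (solid) and after (dotted) removal of the GC trend, over the 34 embryos (black) and within litters (green). Right, correlation of each of 66 embryo libraries with GC content over genes (y axis) by somite number, bars being medians, which go from -0.127 at 5 to 0.166 at 7 somite pairs.

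Apart from Lfng, no member of the segmentation list passed over all embryos. The list held 15 genes of the clock and the presomitic mesoderm, of which 10 had enough counts to be tested, and their median log2 fold change was 0.01 against -0.01 over all tested genes. Hes1, a Notch target that oscillates in the presomitic mesoderm and is also expressed in neural tissue, had medians of 269 and 189 normalized counts at 5 and 6 somite pairs and was lower in all 5 litters (log2 fold change -0.50 ± 0.15, adjusted p = 0.0757). The GC-corrected fit within litters, where 5.58% of all genes passed, gave it -0.64 (adjusted p = 0.0403). Hes1 did not pass within litters without that correction, over all embryos with it, or with litter as a random effect. Axin2, a Wnt target of the clock, was at -0.50 (adjusted p = 0.238).

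The markers of formed somites pointed both ways. Of 15 genes, 10 were tested, with a median log2 fold change of 0.16 and no call. Tcf15, a regulator of epithelial somites, had medians of 64.8 and 94.5 with a wide range at 5 somite pairs (6.42 to 192), and a log2 fold change of 0.60 ± 0.29 (adjusted p = 0.231), while within litters it was 0.90 ± 0.23 (adjusted p = 0.0212). Tcf15 was the only 1 of the 10 to pass there, where 12.5% of all genes passed. With the GC trend removed within litters, no gene of this list passed. Twist1, expressed in head and somite mesenchyme, was at -0.55 ± 0.18 (adjusted p = 0.0884).

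Tailbud and axis extension genes had no call over all embryos. Of 18 genes, 16 were tested, and the median log2 fold change was -0.10. Greb1 came closest to the threshold, with medians of 733 and 985 normalized counts and all 10 of the 6-somite embryos above the median of the 5-somite embryos (log2 fold change 0.41 ± 0.11, adjusted p = 0.0559; 0.53 ± 0.13 within litters, adjusted p = 0.0164). Cdx2, a homeobox gene of the posterior embryo, was at 0.26 over all embryos and at 0.62 within litters (adjusted p = 0.442 and 0.0463). These 2 were the only calls among the 15 genes tested within litters, where 12.5% of all genes passed. Neither passed there with the GC trend removed.

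Hox genes, which pattern the body axis and are switched on in their order along the clusters, were not called over all embryos. Of 39, 26 were tested, 22 of them had a positive log2 fold change with a median of 0.23, and 6 had an unadjusted p under 0.05, all on the higher side. The 6 are 23.1% of those tested, near the 20.5% of all genes. Hoxc9 had medians of 46.1 and 71.6 (log2 fold change 0.68 ± 0.22, adjusted p = 0.0828), but was higher in 3 of the 5 litters only. Hoxc4 was at 0.52, Hoxa7 at 0.50, Hoxc5 and Hoxa4 at 0.45 and Hoxb1 at 0.36, with adjusted p between 0.081 and 0.137. Within litters, where 12.5% of all genes passed, Hoxb1 (0.63 ± 0.13) and Hoxb8 (0.75) were higher among 25 tested, and neither passed there with the GC trend removed.

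Endothelial and neural crest markers had no call over all embryos. Of 19 endothelial genes, 15 were tested, with a median of 0.27, 6 on the higher and 1 on the lower side at an unadjusted p under 0.05. Eng, a co-receptor for transforming growth factor beta, had the largest value (0.69 ± 0.21, adjusted p = 0.0757), and Sox17, which acts in arterial endothelium and endoderm, was at -0.49 (adjusted p = 0.199). Kdr, the receptor for vascular endothelial growth factor, had medians of 443 and 578 and log2 fold changes of 0.30 ± 0.12 (adjusted p = 0.168) and, within litters, 0.39 ± 0.12 (adjusted p = 0.0393; with the GC trend removed 0.56, adjusted p = 0.0225). Of 15 neural crest genes, all tested, 3 were higher and 1 lower at that unadjusted level, where 20.5% of all genes stood, and 7 were positive with a median of -0.07. Sox10, which marks migrating crest, had medians of 19.8 and 45.3 (log2 fold change 0.79 ± 0.29, adjusted p = 0.116), and 0.93 ± 0.27 within litters (adjusted p = 0.0337). Tfap2b, a transcription factor of crest and ectoderm, had medians of 30.8 and 65.6 (0.77 ± 0.23, adjusted p = 0.0759; 0.50 within litters, adjusted p = 0.18). Msx2, expressed in dorsal neural tube and crest, was at -0.79 (adjusted p = 0.257). Foxd3, expressed in premigratory crest, was at -0.43 (adjusted p = 0.127).

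Cyp26b1, which breaks down retinoic acid in the hindbrain and other sites, had the largest value in the retinoic acid list. It ranged from 8.48 to 70.3 (median 32) at 5 and from 21.9 to 121 (median 53.2) at 6 somite pairs, a log2 fold change of 0.83 ± 0.23 (adjusted p = 0.0626), and 1.04 ± 0.29 within litters (adjusted p = 0.0285). The other 9 tested genes of that list lay between -0.27 and 0.35. In the brain list 20 of 25 genes were tested, with a median of 0.08 over all embryos, 0.37 within litters and 0.29 there with the GC trend removed, against -0.01 over all genes within litters. Irx3, a homeobox gene of the neural plate behind the forebrain, was at 0.38 ± 0.12 (adjusted p = 0.0815) and within litters at 0.59 ± 0.14 (adjusted p = 0.0156). En1, a marker of the boundary between midbrain and hindbrain, was at 0.17 over all embryos and at 0.77 within litters (adjusted p = 0.0127).

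Of 35 heart genes, 31 were tested with no call and values from -0.51 to 0.75. Their median was -0.03 over all embryos, 0.34 within litters and 0.19 there with the GC trend removed. An unadjusted p under 0.05 over all embryos was reached by 4, all lower, which is a smaller share than the 20.5% of all genes. These 4 were the transcription factor genes Gata6 (-0.51 ± 0.15), Hand1 (-0.43), Hand2 (-0.33) and Isl1 (-0.28), and of them Isl1, a marker of the second heart field, passed within litters (-0.44, adjusted p = 0.048). Isl1 was the only 1 of the 31 to pass there, where 12.5% of all genes passed. With the GC trend removed within litters, no heart gene passed. The contractile genes Myh6 and Tnnt2 were at 0.05 ± 0.30 and 0.14 ± 0.20, with medians of 36.7 and 31.6 for Myh6 and of 157 and 162 for Tnnt2 at 5 and 6 somite pairs.

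In the lists on metabolism, all 19 glycolysis and lactate genes were tested, and their median was 0.12. At an unadjusted p under 0.05, where 20.5% of all genes stood, 6 were higher and 4 lower, in part within the same pathway. Hk1, which phosphorylates glucose, was at 0.44 ± 0.17 and Pfkl, the liver form of phosphofructokinase, at 0.31 ± 0.12, while Gapdh was at -0.50 and Eno1 at -0.41. Within litters, where 12.5% of all genes passed, Pfkl (0.77 ± 0.10, adjusted p = 0.00258), Hk1 (0.88 ± 0.20), Hk2 (0.43) and the lactate exporter Slc16a3 (0.47) were higher and the monocarboxylate transporter Slc16a1 (-0.39) lower. With the GC trend removed there, 5.58% of all genes passed, among them Pfkl, Hk1 and Hk2. Gapdh, Eno1 and Pgk1 have many processed copies in the mouse genome, so their counts are uncertain. Of 22 glucose and fatty acid transporter genes, 11 were tested with a median of 0.23. At an unadjusted p under 0.05, reached by 20.5% of all genes in either direction, 4 were higher. Slc27a4, a fatty acid transport protein, was at 0.32 ± 0.11 (adjusted p = 0.0899).

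**Figure D4:**
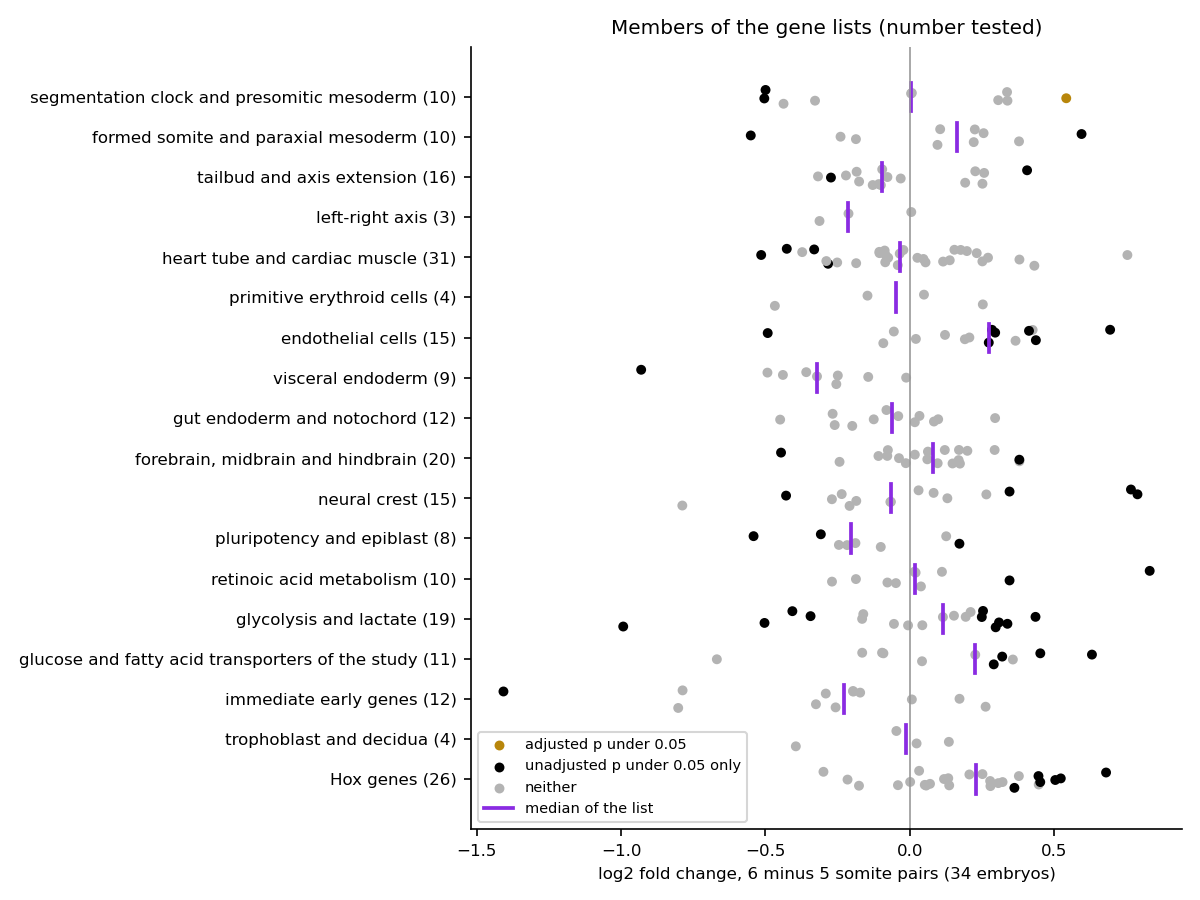
Log2 fold changes (x axis, 6 minus 5 somite pairs, 34 embryos) of the tested members of 18 gene lists (rows), with list medians as purple bars; gold marks an adjusted and black only an unadjusted p under 0.05. Lfng in the segmentation list is the single gold point, and the endothelial list has the highest median, at 0.27.

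Markers of tissues that a dissected embryo should hold little of were given beside these results. Of 10 visceral endoderm markers 9 were tested, all with a negative log2 fold change and a median of -0.32, which became 0.34 within litters. No member passed, and Apob had medians of 52.9 and 30.8 (log2 fold change -0.93 ± 0.44, adjusted p = 0.217). Of 14 primitive erythroid markers 4 were tested, and their summed level was 21.1 to 116 CPM at 5 and 34.1 to 53.5 at 6 somite pairs. Trophoblast and decidua markers summed to at most 53.8 CPM in any of the 34 embryos. Immediate early genes summed to 154 to 799 at 5 and 180 to 336 at 6 somite pairs, and Fos had medians of 5.08 and 3.47 normalized counts (log2 fold change -1.41 ± 0.66, adjusted p = 0.215). The pluripotency list, of which 8 of 13 genes were tested, had a median of -0.20, with Dnmt3b, a de novo DNA methyltransferase, at -0.31 ± 0.11 (adjusted p = 0.101), and none of the 3 tested left-right genes passed.

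The 32 embryos with 7, 8 or 9 somite pairs were used to ask whether the genes went on in the same direction. No gene passed for a slope per somite pair among 10628 tested in edgeR, with 751 at an unadjusted p under 0.05 and 2 calls by DESeq2. The slope had the sign of the earlier difference for 13 of the 32 higher and 7 of the 22 lower genes, compared with 41.2% of all genes tested in both. Across genes the slope correlated with GC content at r = -0.29, against 0.30 for the difference between 6 and 5 somite pairs. The slope was not fitted with the GC trend removed. For none of the 54 was the slope in the same direction with an unadjusted p under 0.05, and for 3 it was opposite (Tmx3 0.13, Capza2 0.14 and Bzw1 0.12 per somite pair). Kctd11 had means of 48.8 ± 11.1, 77.2 ± 14.5, 62.3 ± 24.8, 55.4 ± 10 and 58.7 ± 21.7 (SD) normalized counts at 5, 6, 7, 8 and 9 somite pairs, on size factors of all 66 embryos. Slc9a3r1 had means of 168 ± 28.8, 111 ± 21, 170 ± 43.0, 163 ± 55.6 and 141 ± 23.2. In these 2 genes the 6-somite embryos thus lay farthest out, and the later means lay between or back at the level of 5 somite pairs. Both genes were picked for their difference at 6 somite pairs in these same embryos. An outlying mean at 6 is therefore no separate result. Lfng, with means of 98.6, 145, 136, 128 and 149, and Cyp26b1, with 31.4, 57.6, 101, 106 and 114, stayed above their level at 5 somite pairs. The genes with the smallest p for the slope over 7 to 9 somite pairs were Crabp2, a carrier of retinoic acid in the cell (0.34 ± 0.07 per somite pair, adjusted p = 0.220), Zic1, a zinc finger gene of the dorsal neural tube (0.54 ± 0.13, adjusted p = 0.488), and Fam92a on the rising side. On the falling side they were Lmln (-0.38 ± 0.08, adjusted p = 0.175), the hexokinase gene Hk2 (-0.21 ± 0.05) and Ppt2.

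**Figure D5:**
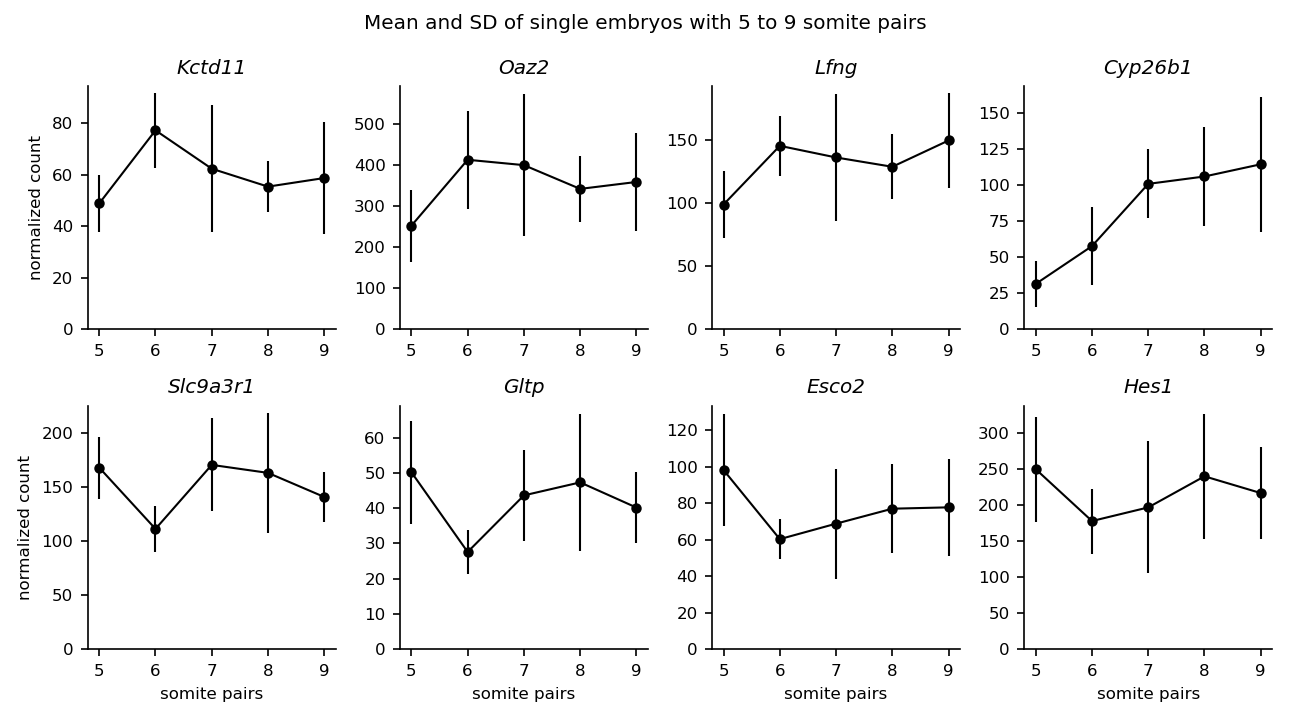
Mean and SD of normalized counts (y axis) of 8 genes in embryos with 5, 6, 7, 8 and 9 somite pairs (x axis; 24, 10, 11, 13 and 8 embryos). Kctd11, Slc9a3r1 and Gltp, which were picked for their difference between 5 and 6, lie farthest out at 6 somite pairs. Cyp26b1 goes from 31.4 at 5 to 114 at 9 somite pairs.

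The difference between 6 and 5 somite pairs did not pass a test of whether it depended on maternal diabetes. No gene passed for the interaction among 11441 tested by edgeR or DESeq2, and 589, or 5.15%, had an unadjusted p under 0.05. The smallest p belonged to Pgam2, a muscle form of phosphoglycerate mutase, whose log2 fold change was 1.04 in diabetic and -0.47 in normal pregnancies (interaction 1.51 ± 0.38, adjusted p = 0.838). It was followed by Flii, an actin-binding protein gene, at 0.29 and -0.94, and by Myocd, a coactivator of muscle genes, at 0.65 and -1.24. Osbpl6 had the same signs as these and Coch the opposite ones. Within normal pregnancies alone, and within diabetic pregnancies alone, no gene passed in edgeR, while 1411 and 1661 genes had an unadjusted p under 0.05 and 21 and 18 passed in DESeq2. When limma took the litter as a random effect, 473 genes passed in the diabetic pregnancies and none in the normal ones.

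In the yolk sacs of the same 34 concepti, grouped by the somite number of the embryo, no gene passed in edgeR among 10614 tested (524 at an unadjusted p under 0.05, none by DESeq2). The nearest were Nrep at 0.65 ± 0.14, with means of 34.9 ± 9.69 and 54.9 ± 13.3 (SD) normalized counts at 5 and 6 somite pairs, and Eef2k, the kinase that slows translation elongation, at -0.76 ± 0.16, with means of 21 ± 5.63 and 11.9 ± 2.90 (adjusted p = 0.183 for both). Of the 54 genes 50 were tested in the yolk sac. Of these, 3 had an unadjusted p under 0.05, where 4.94% of all yolk sac genes stood: Kctd11 (0.45), Fam110a (0.40) and Tmod3 (-0.29). Across all genes the yolk sac log2 fold changes correlated with GC content at r = 0.16, in the same direction as in the embryo (0.30). For 47 of the 50 the sign was that seen in the embryo, but the share of matching signs over all genes was not computed. Embryo and yolk sac come from 1 conceptus and were handled together, so these signs are not independent of the embryo libraries.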

How the data were processed

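RNA of single embryos was sequenced by the authors as stranded 3′ libraries with molecular identifiers. The deposited values are raw counts of molecules for 47643 genes and 136 libraries; the submitters' processing notes name STAR, HTSeq and mm10, and versions and annotation are not given in the sources used here. Symbols came from the deposit and, for 25646 genes, from GENCODE M21, and 26 symbols turned into dates were restored. No columns were left unmapped. The 34 embryos with 5 or 6 somite pairs were compared with edgeR 4.0.16 (R 4.3.3): filterByExpr with its minimum count of 10, TMM, glmQLFit and glmQLFTest, maternal condition as covariate, Benjamini-Hochberg adjustment. Normalized counts are counts divided by DESeq2 1.42.0 size factors. GC content was taken over the last 500 bases of each gene's GENCODE M21 transcripts, and its trend (lowess, span 0.3) was removed per library. Litters were read from the shared start of the titles; all 10 litters with 2 or more of the embryos had a single glucose value. Deviations from the group means correlated between littermates of different somite number at medians of 0.0650 to 0.515 per litter. Between litters the median was -0.0204, with 231 pairs ranging from -0.490 to 0.529, so the littermate values lay inside that range. Litter was also fitted as a replicate block. The named genes were up to 12 in each direction with the largest called fold change, a mean of at least 10 normalized counts and the same sign in both conditions, and called list members. The other called genes, the uncalled list members named and the grouping of called genes by role were chosen after their values were seen. The members and lists were chosen with earlier results of these data known. Permutation tests used 100000 resamples and are two-sided. P-values treat littermates as separate except under the block. The scripts were tested on simulated counts. The deposit's duplicate libraries entered only where named. The result for 1 member of a gene list is not reported here.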

Additional observations from a re-analysis of the deposited data

Results flagged for a closer look

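Among 60 sets of values in the 6-somite groups (6 normal and 4 diabetic embryos), 6 held an embryo far from the rest of its group, while chance alone gives about 1 in 20. For Rnu12, normal 6-somite embryo 6 had 19.1 normalized counts against at most 9.99 in the other 5. For mt-Te, normal embryo 3 had 65.4 against at most 29.5. For Bgn, diabetic embryo 4 had 48.1 against 26.7 to 28.5, and for Bzw1 the same embryo had 445 against 532 to 540. For Dgkq, normal embryo 1 had 97.9 against at most 59.8. Visceral endoderm markers summed to 514 CPM in normal embryo 6 against 232 to 308 in the other 5. Without the embryo that stood apart, all 5 genes kept their direction and lost their call. These were Bgn (log2 fold change 0.79, edgeR adjusted p = 0.105), Bzw1 (-0.47, adjusted p = 0.105), Dgkq (0.47, adjusted p = 0.136), Rnu12 (1.42, adjusted p = 0.0695) and mt-Te (1.17, adjusted p = 0.0508). The loss was not particular to those embryos. Of 10 removals of a single 6-somite embryo, the call was lost in 4 for Bgn, 7 for Bzw1, 8 for Dgkq, 9 for Rnu12 and 5 for mt-Te.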

How the results depend on the processing

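The count of 54 genes between 6 and 5 somite pairs became 439 with DESeq2, 27 with RLE size factors, 25 without a filter, 28 with sex and 2 with the title number as covariate, 128 without maternal condition, 0 in litters numbered 28, 0 with counts summed per litter, 32 with the duplicate library of 1 embryo, 1169 when litter was a random effect and 1421 under a fixed replicate block of litters. Alternatives chosen after seeing the data gave 8 with the GC trend removed, 635 with that and the replicate block, 505 with that and the random block, 31 in libraries thinned to equal depth and 1332 with thinning and the block. Leaving out 1 litter gave 0 to 433, 1 embryo with 6 somite pairs 0 to 328, and 1 litter under the replicate block 327 to 1677 (852 without D24M15, 861 without D28M02, 327 without D28M23, 1677 without N28M06 and 627 without N28M30). Within normal pregnancies, DESeq2 gave 21 in place of 0 and leaving out 1 litter 0 to 50. Within diabetic pregnancies, DESeq2 gave 18, no filter 12, the random block 473 and leaving out 1 litter 0 to 12. For the slope over 7 to 9 somite pairs DESeq2 gave 2 and leaving out 1 litter 0 to 1. The interaction and the yolk sac gave 0 under each alternative run. The log2 fold changes of the 25 named genes reversed in none of these settings, and with the title number added 2 of them, Kctd11 and Slc9a3r1, passed. The cause of the changes in count was not tested. Libraries of 6-somite embryos were deeper, and 10 embryos from 7 litters limit what could be detected.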

Other observations

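Further groups of genes were looked at after their members had been seen among the differences within litters, so their counts are descriptions only. Of 78 tested genes for cytosolic ribosomal proteins, 24 were lower and none higher at 6 somite pairs within litters, with a median log2 fold change of -0.23, where 6.53% of all tested genes were lower. With the GC trend removed 24 were again lower and none higher, with a median of -0.35, where 2.88% of all tested genes were lower. Over all 34 embryos none passed and the median was -0.08. Their summed level had medians of 44748 CPM at 5 and 49093 at 6 somite pairs over the 34 embryos. In the 5 litters with both somite numbers it went from 57452 to 44823 in D28M02, from 54614 to 48172 in N28M30, and from 47801 to 49790 in D24M15. In D28M23 it was 37948 in the 5-somite embryo and 41864 and 42857 in those with 6, and in N28M06 it was 55100 and 55747 at 5 and 48397 and 61139 at 6 somite pairs, so the litters went both ways. Rplp1, of the ribosomal stalk, had means of 1480 ± 771 at 5 and 874 ± 322 (SD) normalized counts at 6 somite pairs, on size factors of all 66 embryos, and a log2 fold change within litters of -0.86 ± 0.12 (edgeR adjusted p = 0.00258).

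Of 32 genes for sister chromatid cohesion and mitosis, 2 (Esco2 and Fbxo5) were lower over all embryos, and within litters 14 were lower and 1 higher, or 7 and none with the GC trend removed, where 6.53% and 5.96% of all tested genes were lower and higher within litters (2.88% and 2.7% with the GC trend removed). Of 42 DNA replication genes, Rrm1 was lower over all embryos, and within litters 6 were lower and 3 higher, with a median of -0.13. Over 7 to 9 somite pairs 28 of the 32 cohesion and mitosis genes had a positive slope, 4 of them at an unadjusted p under 0.05, compared with 51.1% positive slopes and 7.07% at that level among all genes. This sign was opposite to that at 6 somite pairs. The correlation with GC content across genes also had opposite signs (r = -0.29 for the slope and 0.30 at 6 somite pairs). Whether the GC trend accounts for the change of sign was not tested.

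The genes with the smallest p within litters in each direction did not pass over all 34 embryos. Larp4, an RNA-binding protein gene, had means of 228 ± 87.2 and 144 ± 54 (SD) normalized counts on that scale at 5 and 6 somite pairs (log2 fold change within litters -1.16 ± 0.14, adjusted p = 0.00256), and its means at 7, 8 and 9 somite pairs were 132, 127 and 131. Akna, Snx8, Prr12 and Midn were higher within litters, at 1.76, 0.97, 0.87 and 0.80, and Cdc5l, Abce1 and Dnttip2 lower, at -0.72, -0.72 and -0.72.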
